A study of Homo sapiens with 13 samples.

Results

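Chromatin regions that lie at the ends of 2 or more neighbouring protein-coding genes were examined for occupancy by GFP-tagged DNMT1. Peaks of 10 anti-GFP ChIP-seq libraries were pooled on chromosomes 1 to 22 and X, peaks that overlapped a peak of untagged parental cells by 1 bp were dropped, and overlapping peaks were merged into 48763 regions. A region was a shared region when it lay within 1 kb of an end (start or 3′ end) of at least 2 coding genes of RefSeq GRCh38 whose nearest ends had different coordinates. This gave 2292 shared regions, 4.70% of all regions. They are compared with 11376 regions near the end of 1 coding gene (single-end regions, 23.3%), and a further 35095 regions lay at no coding gene end.

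The cells were MV4-11, an established line of acute myeloid leukaemia (AML). Every GFP-DNMT1 line carried a guide RNA against the endogenous DNMT1 gene (gDNMT1) and overexpressed a GFP-tagged DNMT1 construct. The line called NTC had the wild-type construct and a guide without a target, and UHRF1KO had the same construct and a guide that knocks out UHRF1. The line called WT expressed wild-type GFP-DNMT1 with no further guide, and RFTSdel expressed GFP-DNMT1 without its RFTS domain. Each line was grown for 7 days in DMSO or in 100 nM GSK3685032, an inhibitor of DNMT1 (DNMT1i). RFTSdel had 2 libraries per treatment and the other lines had 1, and the parental cells were untreated and carry no GFP construct. The construct was overexpressed, the promoter that drives it and the number of clones behind each line are not stated in the sources used here, and no label gives the RFTSdel replicates as separate cultures, so p-values measure only the spread between these libraries.

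DNMT1 copies DNA methylation onto the new strand after replication, and UHRF1 brings it to hemimethylated CpG sites. The RFTS domain of DNMT1 takes part in this targeting and also folds over the catalytic domain to restrain it. Many human genes share a short stretch of DNA with a neighbour: divergent genes can start from opposite strands of the same CpG-rich promoter, and other neighbours meet start to 3′ end or 3′ end to 3′ end. Promoters of divergent pairs are usually CpG islands of broadly expressed genes that are kept free of methylation.

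The shared regions took in 4290 coding genes, 21.5% of the 19974 on these chromosomes. Of the regions, 2202 lay at 2 distinct ends, 87 at 3 and 3 at 4. The median distance between the 2 nearest ends was 333 bp, and in 1904 regions (83.1%) it was at most 1 kb. Strand could be read for 79.2% of coding genes. On that basis 946 regions (41.3%) lay between or over the starts of 2 genes on opposite strands, 463 (20.2%) at a start and a 3′ end, 141 (6.15%) at 2 3′ ends and 33 (1.44%) at 2 starts on the same strand. A further 577 (25.2%) had a gene without known strand, 90 had 3 or more ends and 42 had 2 ends of more than 2 genes. Genes listed as read-through transcripts, which share exons with a neighbour, accounted for 43 regions. In the opposite-strand start pairs the starts were 226 bp apart at the median, and 84.7% of these regions covered both starts. They are called divergent pairs below, though the genes of 259 of the 946 overlap, so that transcription runs from each start into the other gene.

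Promoter sequences show what the shared regions hold, and 7 are given for the main patterns of calling described below: ILK and RRP8 (called in all 10 libraries), C2CD3 and PPME1 (all DMSO and no DNMT1i library), SAMD3 (DNMT1i libraries alone), ACACA (kept under DNMT1i in RFTSdel alone) and RSAD2 (kept in RFTSdel and UHRF1KO). Each runs from 250 bases before to 50 after the RefSeq start (GRCh38.p14), on the gene's own strand from 5′ to 3′, with CpG sites in capitals. The ILK and RRP8 windows overlap on opposite strands, as do those of C2CD3 and PPME1.
ILK, chr11:6603524-6603823, plus strand: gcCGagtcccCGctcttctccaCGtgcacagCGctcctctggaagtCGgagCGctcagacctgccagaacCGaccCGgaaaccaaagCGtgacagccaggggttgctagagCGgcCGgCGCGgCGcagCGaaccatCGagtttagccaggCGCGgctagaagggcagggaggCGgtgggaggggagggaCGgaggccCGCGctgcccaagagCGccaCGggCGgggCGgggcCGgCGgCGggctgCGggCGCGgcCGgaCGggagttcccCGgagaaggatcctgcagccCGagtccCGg
RRP8, chr11:6603567-6603866, minus strand: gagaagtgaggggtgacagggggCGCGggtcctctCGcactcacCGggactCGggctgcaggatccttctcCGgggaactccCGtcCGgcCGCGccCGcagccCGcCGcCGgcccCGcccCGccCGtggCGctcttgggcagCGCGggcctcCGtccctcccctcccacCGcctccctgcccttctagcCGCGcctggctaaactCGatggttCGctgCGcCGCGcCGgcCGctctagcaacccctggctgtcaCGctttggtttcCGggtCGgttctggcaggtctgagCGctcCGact
C2CD3, chr11:74170953-74171252, minus strand: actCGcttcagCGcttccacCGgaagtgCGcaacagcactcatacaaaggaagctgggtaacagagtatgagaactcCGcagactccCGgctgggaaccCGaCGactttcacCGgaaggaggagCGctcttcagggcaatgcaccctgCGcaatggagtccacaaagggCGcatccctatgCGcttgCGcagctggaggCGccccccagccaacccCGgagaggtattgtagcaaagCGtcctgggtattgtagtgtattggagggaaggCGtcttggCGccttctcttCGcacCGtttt
PPME1, chr11:74171039-74171338, plus strand: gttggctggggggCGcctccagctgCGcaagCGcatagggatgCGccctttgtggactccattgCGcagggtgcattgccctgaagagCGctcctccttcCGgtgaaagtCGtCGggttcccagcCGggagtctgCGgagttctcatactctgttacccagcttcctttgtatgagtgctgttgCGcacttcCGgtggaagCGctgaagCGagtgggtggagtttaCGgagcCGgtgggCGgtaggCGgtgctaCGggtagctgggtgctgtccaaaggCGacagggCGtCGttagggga
SAMD3, chr6:130365819-130366118, minus strand: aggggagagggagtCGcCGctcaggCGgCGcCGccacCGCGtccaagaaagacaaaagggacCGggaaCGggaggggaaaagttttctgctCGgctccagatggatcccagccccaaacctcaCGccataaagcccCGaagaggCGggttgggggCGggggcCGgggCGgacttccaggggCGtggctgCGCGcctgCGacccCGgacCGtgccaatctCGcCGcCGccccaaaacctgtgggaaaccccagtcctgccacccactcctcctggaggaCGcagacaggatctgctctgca
ACACA, chr17:37406787-37407086, minus strand: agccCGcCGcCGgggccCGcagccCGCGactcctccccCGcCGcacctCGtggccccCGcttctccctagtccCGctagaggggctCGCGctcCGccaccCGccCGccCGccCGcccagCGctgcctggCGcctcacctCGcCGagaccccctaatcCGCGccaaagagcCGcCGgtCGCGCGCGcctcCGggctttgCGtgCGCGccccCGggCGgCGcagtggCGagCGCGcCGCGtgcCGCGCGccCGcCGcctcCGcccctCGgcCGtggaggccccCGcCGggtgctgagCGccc
RSAD2, chr2:6865635-6865934, plus strand: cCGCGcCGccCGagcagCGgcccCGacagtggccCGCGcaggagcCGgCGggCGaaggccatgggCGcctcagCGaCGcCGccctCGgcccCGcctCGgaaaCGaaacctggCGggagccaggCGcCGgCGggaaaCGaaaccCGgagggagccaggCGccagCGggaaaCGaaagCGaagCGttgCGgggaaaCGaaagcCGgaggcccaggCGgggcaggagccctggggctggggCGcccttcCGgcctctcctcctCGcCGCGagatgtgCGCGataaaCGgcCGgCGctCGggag
The windows hold 37 CpG sites in ILK, 36 in RRP8, 21 in C2CD3, 23 in PPME1, 26 in SAMD3, 53 in ACACA and 45 in RSAD2. The search described with the promoter comparison found the word CCGGAAG in C2CD3, PPME1 and RSAD2. It also found CCAAT in C2CD3 and SAMD3 and CACGTG in ILK.

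Peak lists differed in length from 4254 to 32523 peaks, and they hold no read counts, so the depth behind each list is unknown. The library WT DNMT1i stands apart: it called 68 of the 426 parental peaks (16%), against 70.4% to 99.3% in the other 9 libraries. Differences and patterns that use it are given with and without it or line by line, and its comparison with RFTSdel rests on it. Shared regions held 3.93% (WT DNMT1i) to 13.8% (RFTSdel replicate 1, DMSO) of a library's peaks. In bulk chromatin, GFP-DNMT1 at a region in fewer cells and less GFP-DNMT1 per cell cannot be told apart.

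Under DMSO, shared regions were called more often than single-end regions in each of the 5 libraries. NTC DMSO called 1801 shared regions, 78.6% of them, against 67.2% of single-end regions and a background of 47.5% of all regions. UHRF1KO DMSO called 1976 (86.2%), against 72.2% of single-end regions and 65.9% of all regions. WT DMSO called 1505 (65.7%), against 58.0% and 33.8%. The gap between shared and single-end regions was smallest in WT. RFTSdel DMSO called 1626 (70.9%) in replicate 1 and 1728 (75.4%) in replicate 2, against 55.1% and 58.4% of single-end regions and 24.7% and 28.4% of all regions. The difference was 13.2 ± 3.76 percentage points (SD, n = 5 libraries), with p = 0.063 in an exact permutation test that flips the signs of library differences (two-sided), the smallest value that 5 libraries allow. Adjusted over the 10 such results of this comparison, p was 0.208 in the same exact test. Within the labels' batches the difference was 13.5 ± 5.10 in batch 1 (n = 3: WT and RFTSdel) and 12.7 ± 1.92 in batch 2 (n = 2: NTC and UHRF1KO).

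Shared regions were wider than single-end regions, at a median of 1276 bp against 1067 bp, and a wider region can reach a second gene end. Compared within 5 classes of region width, the DMSO difference was 8.67 percentage points and remained positive in 5 of 5 libraries. Peak strength did not follow the same order. The median log2 of the authors' fold enrichment differed by −0.01 ± 0.02 between shared and single-end regions (SD, n = 5, exact p = 0.625), with 2 libraries higher and 3 lower. Peaks at shared regions were longer under DMSO by 82.8 ± 44.0 bp (SD, n = 5, exact p = 0.063), but by only 15.3 bp within width classes, where 2 of 5 libraries were higher.

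Counting genes in place of regions gave the same order under DMSO, with the same 1 kb window for each end. This is not a separate line of support. The window of a paired end also holds the neighbour's end, and 1 peak can mark both. A higher share at pairs is thus in part built in, and the size of that part was not tested. Of 2225 gene starts with another gene's start within 1 kb, 71.6% had a peak within 1 kb in NTC DMSO, against 45.2% of 12736 starts with no other coding gene end near. The corresponding shares were 78.1% and 47.5% in UHRF1KO DMSO and 59.1% and 39.7% in WT DMSO. In RFTSdel DMSO they were 71.4% and 40.6% in replicate 1 and 76.2% and 42.8% in replicate 2. Paired starts were thus the more often marked in each of these libraries. A start that faces only a 3′ end lay in between, at 54.9% in NTC DMSO. At 3′ ends the levels were low: 11.0% of 3′ ends paired only with other 3′ ends and 5.15% of solitary 3′ ends had a peak in NTC DMSO. Over all gene ends the difference between paired and solitary ends was 24.9 ± 3.38 percentage points under DMSO (SD, n = 5, exact p = 0.063, higher in 5 of 5 libraries). Under DNMT1i it was 7.13 ± 7.79 points (SD, n = 5, exact p = 0.1875, higher in 4 of 5 libraries), and 9.26 without the WT line. NTC DNMT1i had a peak at 8.59% of paired and 7.56% of solitary ends, although among starts alone its share was the lower one at pairs. In at least 1 of the 10 libraries, 87.8% of paired starts and 63.0% of solitary starts had a peak.

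The rule places the divergent regions within 1 kb of both starts, so cover near their midpoint follows in large part from it and is given as a level. At the midpoint of the 946 opposite-strand start pairs, a peak covered 68.8% of regions in NTC DMSO, 77.7% in UHRF1KO DMSO, 52.9% in WT DMSO and 68.7% and 76.5% in the RFTSdel DMSO replicates. At the start of single-start regions the cover was 56.5%, 61.5%, 47.8%, 53.9% and 57.7% in the same order. Away from the centre, at 500 bp to either side in NTC DMSO, the cover was 32.3% and 28.3% around pairs and 22.3% and 22.1% around single starts. The cover of pairs was thus higher both at the centre and at 500 bp. Further out in NTC DMSO it was not. At 1000 bp it was 7.82% and 8.35% around pairs and 7.81% and 8.03% around single starts. At 1500 bp it was 3.17% and 2.43% around pairs and 3.41% and 3.62% around single starts.

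Fewer shared regions were called under DNMT1i than under DMSO in every line, and the lines with wild-type GFP-DNMT1 and intact UHRF1 stood on the other side of 0 from the rest when shared and single-end regions were compared, a contrast that was not tested. NTC went from 1801 to 320 shared regions, WT from 1505 to 163 and UHRF1KO from 1976 to 567. RFTSdel went from 1626 to 962 in replicate 1 and from 1728 to 1377 in replicate 2. The share of shared regions called was 14.0% in NTC DNMT1i and 7.11% in WT DNMT1i, below the 21.6% and 15.9% of single-end regions, with 11.9% and 8.68% of all regions called. It was 24.7% in UHRF1KO DNMT1i, and 42.0% and 60.1% in the RFTSdel DNMT1i replicates. There it lay above the 20.3%, 38.0% and 53.0% of single-end regions, and 9.39%, 15.3% and 22.5% of all regions were called. Over the 5 libraries the difference was −0.20 ± 7.44 percentage points (SD, n = 5, exact p = 0.9375), with 3 libraries higher and 2 lower. Without the WT line, whose DNMT1i library stands apart, the mean difference was 1.34 points (n = 4, exact p = 0.75). Compared only among starts, the difference in RFTSdel replicate 1 was −0.27 points, on the side of NTC and WT.

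The ratio of regions called under DNMT1i to those called under DMSO was lower at shared regions in NTC and WT. On a log2 scale this ratio was −2.49 at shared and −1.64 at single-end regions in NTC, and −3.21 and −1.87 in WT. It was −1.80 and −1.83 in UHRF1KO, and −0.76 and −0.54, and −0.33 and −0.14, in the RFTSdel replicates. The difference between shared and single-end regions was thus large in the wild-type lines, small in RFTSdel and near 0 in UHRF1KO. Over the 5 pairs of libraries it was −0.52 ± 0.57 (SD, n = 5, exact p = 0.125, lower in 4 of 5 pairs), and −0.32 without the WT line. The median log2 fold of peaks under DNMT1i differed between shared and single-end regions by −0.04 ± 0.02 (SD, n = 5, exact p = 0.125, lower in 4 of 5 libraries), and again by −0.04 without the WT line.

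Of the shared regions called under DMSO, 231 (12.8%) were also called under DNMT1i in NTC, 86 (5.71%) in WT and 519 (26.3%) in UHRF1KO. RFTSdel kept 860 (52.9%) in replicate 1 and 1228 (71.1%) in replicate 2. Single-end regions were kept at 15.9%, 11.4%, 20.4%, 56.3% and 72.0% in the same order, and all regions at 9.67%, 8.15%, 9.36%, 46.9% and 57.1%. UHRF1KO was the only pair in which shared regions were kept more often than single-end regions, whereas against all regions they were kept more often in every pair but WT. The difference between shared and single-end regions over the 5 pairs was −1.46 ± 4.41 percentage points (SD, n = 5, exact p = 0.5), and −0.54 without the WT line. Read from the DNMT1i side, 72.2% of the shared regions called under DNMT1i in NTC were also called under DMSO, 52.8% in WT, 91.5% in UHRF1KO and 89.4% and 89.2% in RFTSdel. The same share was 49.6%, 41.6%, 72.5%, 81.5% and 79.3% at single-end regions and 38.6%, 31.7%, 65.7%, 75.9% and 71.9% over all regions. It was the highest at shared regions in each of the 5 pairs.

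Among pairs of genes with known strand, divergent starts had the lowest kept share in both wild-type lines and in RFTSdel replicate 1. In NTC their 95% Wilson interval (8.29% to 12.6%) overlapped that of regions at a start and a 3′ end (8.74% to 15.3%). The intervals of these classes also overlapped in WT and RFTSdel replicate 1. Divergent pairs went from 772 to 114 regions in NTC and from 650 to 44 in WT, and 10.2% and 3.08% of their DMSO regions were kept. UHRF1KO went from 845 to 251 divergent pairs and kept 28.0%. The RFTSdel replicates went from 769 to 402 and from 819 to 598 and kept 49.4% and 68.0%. Single-start regions were kept at 14.9% in NTC, 10.6% in WT, 21.9% in UHRF1KO and 56.4% and 73.1% in RFTSdel. Compared only among starts, the difference in call share was 13.7 percentage points under DMSO and −2.40 under DNMT1i (n = 5, exact p = 0.063 and 0.4375). By line, the DNMT1i difference among starts was −9.63 in NTC, 4.68 in UHRF1KO and −0.27 and 4.29 in RFTSdel. It was lowest in WT, at −11.1, so the mean of −2.40 leans on the library that stands apart. Regions at a start and a 3′ end kept 11.6%, 4.43%, 26.7%, 55.8% and 75.7% (NTC, WT, UHRF1KO, RFTSdel replicates). Of the 141 regions at 2 3′ ends, DMSO libraries called 50.4% in NTC, 33.3% in WT, 71.6% in UHRF1KO and 12.1% and 17.0% in RFTSdel. Regions at 1 gene 3′ end had the same order, at 46.5%, 31.4%, 65.8%, 16.6% and 20.2%, so it was shared with them. Regions at 2 3′ ends were kept at 12.7%, 10.6%, 11.9%, 58.8% and 54.2%, the last 2 from 17 and 24 regions. The 33 same-strand start pairs were kept at 24.0% in NTC and 17.4% in WT, from 25 and 23 regions.

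Divergent pairs with starts further apart had higher call shares in several libraries, a description with no test. A region must come within 1 kb of both starts, so wide spacing can select wide regions. Region width was not taken into account here. In NTC DMSO, 80.0% of pairs with starts up to 200 bp apart, 82.6% of those over 200 and up to 500 bp apart, 82.7% of those over 500 and up to 1000 bp apart and 85.5% of the 62 pairs over 1000 bp apart were called. In WT DMSO the shares were 61.1%, 73.7%, 72.2% and 87.1%. In UHRF1KO DNMT1i they were 22.4%, 29.1%, 30.1% and 33.9%. In RFTSdel DNMT1i they were 40.1%, 39.4%, 48.9% and 61.3% in replicate 1 and 60.1%, 61.5%, 67.7% and 83.9% in replicate 2. NTC DNMT1i, at 10.5% to 12.9%, had no such order. Nor had WT DNMT1i, at 5.42%, 2.14%, 7.52% and 6.45%, or UHRF1KO DMSO, at 87.7%, 91.4%, 86.5% and 95.2%. Pairs whose genes overlap share transcribed DNA. They were called in 51.4% and 69.9% in the RFTSdel DNMT1i replicates, against 39.2% and 60.7% of pairs that do not overlap. Under DNMT1i the shares were 27.8% against 26.1% in UHRF1KO, 13.9% against 11.4% in NTC and 6.56% against 3.93% in WT. Under DMSO no such gap was seen in NTC (81.1% against 81.8%), UHRF1KO (87.3% against 90.1%) or RFTSdel (81.5% against 81.2% and 86.1% against 86.8%). WT DMSO had 73.4% against 67.0%.

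The effect of the UHRF1 guide and of the RFTS deletion can be given only side by side, since at least 1 group in each comparison had 1 library. Under DMSO, UHRF1KO and NTC called 1976 and 1801 shared regions and had 1667 in common, which is 84.4% of the UHRF1KO and 92.6% of the NTC regions. The common part at single-end regions was 78.7% and 84.4%. Under DNMT1i UHRF1KO and NTC called 567 and 320 shared regions, a log2 ratio of 0.83, and had 179 in common (31.6% and 55.9%). At single-end regions the DNMT1i lists held 2314 and 2459 regions, a log2 ratio of −0.09, and the common part was 46.1% and 43.4%. Among divergent start pairs the DNMT1i counts were 251 and 114, a log2 ratio of 1.14. RFTSdel DNMT1i exceeded WT DNMT1i by a log2 ratio of 2.56 and 3.08 at shared regions and 1.25 and 1.73 at single-end regions, all resting on the WT DNMT1i library that stands apart. Against NTC DNMT1i, WT DNMT1i called 163 shared regions, of which 131 (80.4%) were among the 320 of NTC. At single-end regions this share was nearly the same, at 79.8%. The RFTSdel replicates had 880 DNMT1i shared regions in common, 91.5% of replicate 1 and 63.9% of replicate 2. Single-end regions were close to this, at 90.2% and 64.7%. These overlaps between lines are not given over all regions.

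Combinations of libraries describe the same shared regions singly. All 5 DMSO libraries called 1213 (52.9%), against 16.1% of all regions and 39.9% of single-end regions. All 10 called 19 (0.83%, background 0.211%), against 0.48% of single-end regions, and without WT DNMT1i the remaining 9 libraries called 89. Of the shared regions, 863 (37.7%, background 11.1%) were called in 7 or more libraries, and 262 (11.4%, background 50.2%) were called in 1 library. All 5 DMSO and no DNMT1i library called 167 (7.29%, background 2.93%), and 5.00% of single-end regions had this pattern. Without WT DNMT1i the count was again 167, and without RFTSdel replicate 2 it was 362. The pattern of both RFTSdel DNMT1i libraries and UHRF1KO DNMT1i, but neither wild-type DNMT1i library, held 240 shared regions (10.5%, background 2.53%) against 6.73% of single-end regions, and 244 without regard to WT DNMT1i. Kept in both RFTSdel DNMT1i libraries only, after all 5 DMSO libraries, were 374 (16.3%, background 5.56%), close to the 15.4% of single-end regions, and 375 without regard to WT DNMT1i. In the other direction, 94 (4.10%, background 10.8%) were called in no DMSO library, as were 10.8% of single-end regions. Of these, 44 were called in 2 or more DNMT1i libraries (1.92%, background 3.45%), against 6.15% of single-end regions. All 5 DNMT1i libraries called 43 (1.88%, background 0.988%), below the 2.63% of single-end regions. Without WT DNMT1i the other 4 called 116 (5.06%), above the 4.67% of single-end regions, so this order turned with that library. Both wild-type DNMT1i libraries and no other DNMT1i library called 20 (0.87%, background 1.79%), against 3.34% of single-end regions. Without regard to WT, NTC DNMT1i and neither UHRF1KO nor RFTSdel DNMT1i called 47 (2.05%), against 6.35% of single-end regions.

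The regions called in all 10 libraries are described first, with the authors' fold in each list. Folds of separate lists depend on each library's background, so they are set side by side here and not compared between lists. The 3′ end of CHUK (a kinase of the NF-kappaB pathway) and an end of ERLIN1 (a protein of the endoplasmic reticulum membrane) share chr10:100184847-100187241. Its fold under DMSO stood at 7.17 in NTC, 7.47 in UHRF1KO, 6.64 in WT and, in the RFTSdel replicates, 9.64 and 11.9. Under DNMT1i it was 7.27, 9.74, 4.69, 6.12 and 5.84. Ranked by fold within its own list, this region had a percentile of 95.9 or more in 9 of the lists and of 76.0 in WT DNMT1i. At LAMTOR2 (a subunit of the Ragulator complex on lysosomes) and UBQLN4 (a proteasome shuttle factor), chr1:156053012-156055251, the fold was 5.95, 5.75, 4.13, 6.52 and 6.35 under DMSO and 8.16, 9.38, 4.46, 5.85 and 7.04 under DNMT1i. At ILK (integrin-linked kinase) and RRP8 (a nucleolar methyltransferase), chr11:6603308-6604580, it was 5.38, 5.23, 6.11, 7.98 and 8.33 under DMSO and 5.88, 8.41, 5.10, 5.34 and 4.97 under DNMT1i. Also called in all 10 were CAMK2N2/EEF1AKMT4, IRS2/LOC124903211 (IRS2 relays insulin signalling), CCDC85C/HHIPL1, FBXL8/HSF4/TRADD (TRADD is an adaptor of the TNF receptor) and AJM1/PHPT1, with folds between 3.44 and 7.61.

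Among the regions called in all 5 DMSO and no DNMT1i library, DYNLT2 (a dynein light chain) and ERMARD, which overlap and start on opposite strands at chr6:169751363-169752153, had a fold of 5.78 in NTC, 5.93 in UHRF1KO, 4.97 in WT and, in the RFTSdel replicates, 6.87 and 7.85. The region of C2CD3 (needed for centriole growth) and PPME1 (the methylesterase of phosphatase PP2A), chr11:74170004-74171674, had 4.96, 6.18, 6.33, 6.47 and 6.45. ANLN (anillin, which acts in cytokinesis) and MATCAP2, chr7:36389369-36390570, had 6.12, 5.87, 4.48, 6.41 and 7.44. Within their own DMSO lists these 3 regions had percentiles of 80.6 to 99.2 by fold. ERMAP/SVBP, DCUN1D3/LYRM1 and BSCL2/GNG3 (BSCL2 is seipin, of lipid droplets) had folds between 4.28 and 7.86. Of these 6 regions, 5 join starts on opposite strands, and BSCL2/GNG3 joins a start to a 3′ end. In all but C2CD3/PPME1 the genes overlap.

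The named regions called in no DMSO library had folds of 3.45 to 6.14 under DNMT1i. B3GAT2 (a glucuronyltransferase) and the predicted gene LOC124901229, chr6:70955572-70957261, had 5.08 in NTC, 6.14 in UHRF1KO, 4.46 in WT and, in the RFTSdel replicates, 4.14 and 4.39. SAMD3 and TMEM200A, chr6:130365389-130366608, had 4.26, 4.08, 4.59, 4.12 and 3.45. C1QTNF4/FAM180B and MTG1/SPRN (MTG1 is a GTPase of the mitochondrial ribosome) were also called in all 5 DNMT1i libraries, with folds of 3.94 to 5.73. All 4 regions had no call in any DMSO library. GPR135/L3HYPDH was not called in UHRF1KO DNMT1i, and FOXL2/FOXL2NB (FOXL2 is a transcription factor of the ovary) was not called in RFTSdel replicate 2. In both wild-type DNMT1i libraries and no other DNMT1i library lay LEF1/LOC124900752 (LEF1 is a transcription factor of the Wnt pathway), at 4.45 in NTC and 5.62 in WT, ALLC/DCDC2C at 4.56 and 5.12, and LOC124901001/TMEM171 at 4.36 and 5.28. LOC124901001/TMEM171 was also called in UHRF1KO DMSO, at 3.64.

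A further set of regions was called in all 5 DMSO libraries and, under DNMT1i, in RFTSdel alone. ACACA (acetyl-CoA carboxylase, of fatty acid synthesis) and TADA2A (an adaptor of histone acetyltransferases) start 50 bp apart at chr17:37406560-37407466. Their region had 6.86 in NTC, 6.69 in UHRF1KO, 5.59 in WT and 10.8 in each RFTSdel library under DMSO, and 4.26 and 4.45 in RFTSdel under DNMT1i. CREM (a cAMP-responsive transcription factor) and CUL2 (a cullin scaffold of ubiquitin ligases), chr10:35126524-35128141, had 7.82 and 9.48 in the RFTSdel DMSO libraries and 3.31 and 4.70 in the DNMT1i ones. NAB1/NEMP2, KCTD20/PXT1 and E2F1/NECAB3 (E2F1 drives entry into S phase; its 3′ end lies here) ranged from 6.90 to 11.0 in RFTSdel DMSO and from 3.84 to 5.85 in RFTSdel DNMT1i.

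Regions with the most gene ends were long. EME2/MAPK8IP3/MRPS34/NME3, chr16:1769214-1775168, spans 5955 bp and 4 ends and was called in all 5 DMSO libraries (3.99 to 6.90) and in RFTSdel replicate 2 under DNMT1i (3.54). EIF3G/P2RY11/PPAN/PPAN-P2RY11 on chromosome 19 was called in 4 DMSO and 2 DNMT1i libraries. Its PPAN-P2RY11 entry is a read-through gene. The other regions named by this rule are KIFC2/TMEM276/TMEM276-ZFTRAF1/ZFTRAF1 and ARHGAP39/C8orf82/LRRC24 on chromosome 8, and FBXL8/HSF4/TRADD.

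Of 28 neighbouring pairs chosen as textbook or otherwise known pairs, 24 had a shared region. Beside this, 87.8% of all paired starts had a peak in at least 1 of the 10 libraries. The 24 include CHUK/ERLIN1, LAMTOR2/UBQLN4 and ILK/RRP8, named above as called in all 10 libraries, so the count is a description only. PPAT/PAICS and AAAS/SP7 had a region at other ends of their genes only, and COL4A5/COL4A6 had none. ATM (a kinase of the DNA break response) and NPAT (an activator of histone genes), chr11:108222226-108223330, were called in all 5 DMSO libraries, at 3.71 in NTC, 5.44 in UHRF1KO, 4.84 in WT and, in the RFTSdel replicates, 6.12 and 5.33. Under DNMT1i this region was called only in RFTSdel replicate 2, at 3.70. CMPK2 and RSAD2, a divergent pair of interferon-induced antiviral genes, had folds of 5.13, 4.49, 5.41, 8.77 and 6.88 under DMSO. The DNMT1i values were 4.10 in UHRF1KO and 4.71 and 6.0 in RFTSdel, and neither wild-type line had a call. HSPD1/HSPE1, the mitochondrial chaperonins, and TAP1/PSMB9, of antigen processing, had the same pattern of calls, with folds of 3.24 to 5.37 and 3.53 to 4.81. SIRT3/PSMD13 and CTC1/PFAS were called in all 5 DMSO and no DNMT1i library. The collagen IV genes COL4A1/COL4A2, which start on opposite strands 127 bp apart on chromosome 13, had another pattern: all 5 DNMT1i libraries (4.88 in NTC, 3.99 in UHRF1KO, 5.62 in WT, 3.73 and 4.11 in RFTSdel) and 2 DMSO libraries (3.57 in NTC and 3.75 in UHRF1KO). COL4A3/COL4A4 was called in WT DMSO (3.82) and in NTC and WT DNMT1i (3.40 and 4.05).

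Gene lists were compared with the 21.5% of all coding genes that had an end at a shared region, as counts without a test. Replication-dependent histone genes, which lie in dense clusters, stood at 41 of 69 (59.4%). Mitochondrial ribosomal proteins stood at 33 of 74 (44.6%), aminoacyl-tRNA synthetases at 16 of 37 (43.2%), DNA replication at 27 of 63 (42.9%) and oxidative phosphorylation at 35 of 82 (42.7%). DNA repair genes stood at 30 of 74 (40.5%), cytosolic ribosomal proteins at 32 of 81 (39.5%), viral sensing and interferon genes at 16 of 47 (34%) and proteasome subunits at 11 of 39 (28.2%). All of these also had more neighbouring ends within 1 kb (33.3% to 58.0% of genes) than the 27.2% of all coding genes. Lower or similar shares were found for zinc finger (ZNF) genes, 76 of 509 (14.9%), DNA methylation and SUMO genes, 6 of 36 (16.7%), myeloid and leukaemia genes, 7 of 36 (19.4%), and HOX genes, 10 of 39 (25.6%). The 22 of 53 clustered protocadherin genes share 1 region, at their common 3′ end beside DIAPH1, called in NTC, UHRF1KO and WT DMSO (folds of 2.96 to 3.55).

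Over all 4290 genes at shared regions, WT DNMT1i called the region of 333, NTC DNMT1i of 654, UHRF1KO DNMT1i of 1151 and RFTSdel DNMT1i of 1910 in replicate 1 and 2709 in replicate 2. Single lists are set beside these counts. Of the 41 histone genes, WT DNMT1i called the region of 0, NTC of 4, UHRF1KO of 2 and RFTSdel of 9 and 21. Of the 30 DNA repair genes the counts were 0, 2, 8, 11 and 20, and of the 16 interferon genes 0, 0, 6, 7 and 10. Of the 32 cytosolic ribosomal genes they were 2, 4, 13, 10 and 20, and of the 10 HOX genes 3, 3, 1, 1 and 4. The RFTSdel replicates thus differed by over 1.5 times in all of these lists but the interferon one. UHRF1KO exceeded NTC over all genes and in the repair, interferon and ribosomal lists, and was below it in the histone and HOX lists, differences that were not tested. Over the other lists, protocadherins aside, WT DNMT1i called from 0 (mitochondrial ribosomal, DNA replication, and DNA methylation and SUMO genes) to 10 (ZNF genes). Some genes of the lists were called in nearly all libraries. The replication clamp gene PCNA, with CDS2 (chr20:5126007-5127796), was called in all 5 DMSO libraries and in NTC, UHRF1KO and both RFTSdel DNMT1i libraries, with folds of 3.73 to 6.91. RPS2/NDUFB10 (a ribosomal and a respiratory gene, chr16:1957579-1965794) was called in all 10, with folds of 3.71 to 6.49. The leukaemia-linked homeobox gene HOXA9, with its read-through HOXA10-HOXA9, was called in 4 DMSO and all 5 DNMT1i libraries (3.41 to 4.51). SENP3/EIF4A1 (SENP3 removes SUMO) was called in all 5 DMSO libraries and in NTC, UHRF1KO and both RFTSdel DNMT1i libraries, with folds of 3.78 to 6.90.

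DNMT1 itself had a single-end region at its start (chr19:10194157-10195502), called in 8 libraries with folds of 3.38 to 6.44. No region lay at an end of UHRF1. These lists give no check of the knockout of either gene.

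Promoter sequences of 300 bases from RefSeq (250 before to 50 after the start) were compared for 1876 genes of divergent shared regions, 7667 genes at single-start regions and all 15813 coding genes with an entry. The median number of CpG sites was 27, 27 and 22, and the median GC content was 65.0%, 66.3% and 62.7%. Genes with no region at an end had a median of 5 CpG sites. Divergent promoters held CCGGAAG, the core bound by ETS factors, in 26.1%, against 16% at single starts and 14.1% of all promoters. They held TATAAA, the TATA box, in 3.84%, against 5.76% and 9.75%. Divergent and single-start promoters thus had the same median number of CpG sites. The other 5 of the 7 words were searched likewise on both strands: the YY1 word was found in 3.04%, 1.54% and 1.33%; the NRF1 word in 2.99%, 2.11% and 1.77%; CCAAT in 39.8%, 34.4% and 36.4%; CACGTG, the E-box, in 11.0%, 9.94% and 8.82%; and TGACGTCA, the CRE, in 2.99%, 3.34% and 2.56%. A promoter was counted once per word however many copies it held, and no word contains another. A match is a description of letters and not of a bound site. Divergent genes called in 7 or more libraries had a median of 30 CpG sites (n = 760), against 22 (n = 316) in those called in 3 or fewer. Divergent genes called in all 5 DMSO and no DNMT1i library had 25 (n = 190), and those called under DNMT1i in RFTSdel and UHRF1KO but neither wild-type line had 31 (n = 230). The 2 windows of a divergent pair can overlap, so these genes are not independent.

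Anti-GFP signal without GFP-DNMT1 also fell at gene ends. Of the 426 peaks of the parental cells, 117 (27.5%) lay at ends of 2 or more coding genes and 242 (56.8%) at 1 end. When parental peaks were kept, 134 of 2414 shared regions (5.55%) overlapped one, against 2.07% of single-end regions and 0.13% of regions at no end. The parental library had a peak at 6.74% of paired starts and 1.52% of solitary starts. The part of this background in the shared regions that remain after removal of parental peaks was not tested.

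Regions near the 1 kb limit on the second end include KLHDC3/PPP2R5D and CDPF1/PPARA just inside, each 1000 bp from the second end and called in 6 and 1 libraries, with folds of 3.32 to 5.82 and 3.98. Just outside lie C1QTNF5/MFRP/RNF26 at 1007 bp and MROH6/NAPRT at 1008 bp, each called in 2 libraries, with folds of 3.71 to 4.04 and 3.60 to 3.74.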

How the data were processed

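Anti-GFP ChIP-seq was done in MV4-11 cells fixed with disuccinimidyl glutarate, then formaldehyde (per the labels' protocols). There were 10 GFP-DNMT1 libraries and 1 parental library, and 2 inputs were not used here. Batch numbers follow the sample labels; the design text of the series swaps them.

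Each deposited file is a list of broad peaks called in 1 library and not on pooled samples. Per the submitters' processing notes, the tools were MACS2, BWA, cutadapt, Picard and deepTools and the build was GRCh38 (versions, settings and the peak caller's control: not given in the sources used here). A deposited fold is a ratio of signal over background, from the authors' peak caller. The deposited −log10 columns hold the authors' −log10 p and −log10 q, and the deposited score was not used for results. These peak values are the authors': they were compared and ranked within a list, and are printed side by side across lists as a description.

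Peaks were merged into regions when they overlapped by 1 bp, and a library called each region that held one of its peaks. Its fold is that of its strongest peak. Gene positions, and promoter sequences that also gave strand, came from RefSeq (GRCh38.p14). The promoter table held 15813 of 19974 coding genes. Python 3.11.15, numpy 2.4.6, pandas 2.3.3 and scipy 1.17.1 were used, and the functions were tested on simulated data.

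Shared and single-end regions were compared within each library, and the signs of the 5 differences (libraries, or DMSO and DNMT1i pairs) were flipped in an exact two-sided permutation test. Its smallest p is 0.063, so no result of this test could pass 0.05. RFTSdel libraries were paired by replicate number, and the other lines by being the only library of a treatment; the labels do not say that a number marks a shared culture. Depth is unknown, and Wilson intervals (95%) cover counting error only. Named regions were the 8 called in all 10 libraries, 6 called in DMSO only, 5 kept in RFTSdel only and 3 called in NTC and WT DNMT1i only with the highest fold percentiles, 6 called in DNMT1i only with the most calls, 5 with the most gene ends, 2 on each side of the 1 kb limit, up to 3 genes a list, and the known pairs; a few of these are not reported here. The members, gene lists, pairs and motifs were chosen with earlier results of these data known. Alternatives changed the window, merging, peak thresholds, list length, parental filter, region class and libraries used.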

Additional observations from a re-analysis of the deposited data

Results flagged for a closer look

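The difference in call share between shared and single-end regions under DNMT1i had opposite signs in the lines with wild-type GFP-DNMT1 and in RFTSdel, and was flagged for that. It was −7.65 percentage points in NTC and −8.82 in WT but 3.96 and 7.09 in RFTSdel, so the means were −8.24 and 5.53 and differed by −13.8 points. UHRF1KO, with wild-type GFP-DNMT1, had 4.40. This difference between groups was not tested. The WT DNMT1i library, which called the fewest parental peaks, is 1 of the 2 wild-type values, and the NTC library shows the same sign without it.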

How the results depend on the processing

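No alternative took a p-value below 0.05, which 5 libraries cannot reach in the exact sign-flip test. The higher call share of shared regions and the higher share of marked paired ends under DMSO kept their direction in every alternative run, at 4.54 (−log10 q of at least 4) to 13.9 percentage points (parental peaks kept) and 8.78 (lists of equal length) to 28.1. Leaving out 1 line or replicate gave 12.2 to 13.8 and 24.0 to 26.3. Values near 0 changed sign. With parental peaks kept, the DNMT1i difference in call share was 1.32 points in place of −0.20, the DMSO difference in log2 fold was 0.0073 in place of −0.0067, and retention differed by 0.13 in place of −1.46. Leaving out 1 line or replicate gave a DNMT1i difference of −2.22 to 1.34; it was 0.63 without NTC and 1.34 without WT. The change in call number stayed negative, from −0.82 to −0.32. Without the replicate block it was −0.52. Its p of 0.0635 came from another exact permutation test, of 5 DNMT1i against 5 DMSO values, which can go below 0.05. Retention differed by −1.44 with the RFTSdel replicates crossed. The number of shared regions was 4088 with a window of 3 kb, 1340 with −log10 q of at least 4 and 1418 with lists of equal length, against 2292. Alternatives added after the data were seen gave 89 shared regions in all libraries without WT DNMT1i, against 19, and 116 in all DNMT1i libraries, against 43. Leaving out 1 line or replicate gave 18 to 90 such regions, 167 (main) or 183 to 362 regions in all DMSO and no DNMT1i library, and 2109 to 2279 shared regions. Width classes and the limit of 1 kb between ends gave no value for marked ends. The cause of these shifts was not tested.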
